A study of Mus musculus with 25 samples.

Results

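The GLIS and ZMIZ genes were described in a pair of mouse pancreatic tumour lines: 5 genes, Glis1, Glis2, Glis3, Zmiz1 and Zmiz2, of 24439 genes in the RNA-seq tables, and 53 peaks of open chromatin of 65053. The genes were taken by symbol. A peak was taken where the deposited annotation named a member as its nearest gene or where the peak lay inside the gene body on the mm9 build (NCBIM37, GENCODE vM1). By nearest gene 24 peaks qualified, and 29 more lay inside a gene body but were annotated to another gene. Open chromatin was measured by ATAC-seq, in which a transposase cuts DNA it can reach, and RNA by RNA-seq.

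αTC1 is alpha TC1 clone 6, a clonal line of glucagon-producing alpha cells, and βTC6 is beta-TC-6, an insulin-producing beta cell line. Neither line carried a treatment or an engineered allele named in the labels, and the lines were grown in different media, so line and medium cannot be told apart. There were 5 ATAC-seq libraries of each line, 9 of mixtures holding 10% to 90% αTC1 cells with βTC6 cells, and 3 RNA-seq libraries of each line. The labels do not say whether replicates were separate cultures, so the tests measure only the spread between libraries, which may be technical. In bulk samples a lower RNA level cannot be told apart from fewer cells that express the gene.

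The ATAC-seq libraries of the pure lines held 4397851 to 10374903 reads in peaks, and the RNA-seq libraries 21954031 to 26033482 expected counts. The line labels were checked against hormone and transcription factor genes. All 6 beta cell marker genes (Ins1, Ins2, Pdx1, Mafa, Nkx6-1 and Iapp) were higher in βTC6, and 5 of 6 alpha cell marker genes were higher in αTC1, with Ttr the exception. Of 9 markers of other islet and pancreatic cells, Sst and Ppy passed the expression filter, and both were higher in βTC6, where Sst had 207, 234 and 325 FPKM against 0 in each αTC1 library. The part of somatostatin-expressing cells in the results below was not tested.

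The GLIS proteins are Krüppel-like zinc finger transcription factors related to the GLI and ZIC families. GLIS3 binds the insulin gene promoter, and its loss causes neonatal diabetes with hypothyroidism in people and diabetes in mice. ZMIZ1 and ZMIZ2 are coactivators with a zinc finger like that of the PIAS proteins, which attach SUMO, and ZMIZ1 acts with Notch1. Common variants at GLIS3 and ZMIZ1 are associated with type 2 diabetes.

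The windows below show the sequence under some of the peaks on which the accessibility results turn: a selection of those called in either direction, and the Glis3 and Zmiz1 peaks that the study lists as diabetes-locus elements. Each is the central 200 bases of a peak on the forward strand of mm9, except the Glis3 promoter, which gives the 200 bases before the annotated start on the reverse strand. Capitals mark TAATTA, a homeodomain core, or CAGCTG, an E-box.

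Glis3 promoter, chr19:28754568-28754767: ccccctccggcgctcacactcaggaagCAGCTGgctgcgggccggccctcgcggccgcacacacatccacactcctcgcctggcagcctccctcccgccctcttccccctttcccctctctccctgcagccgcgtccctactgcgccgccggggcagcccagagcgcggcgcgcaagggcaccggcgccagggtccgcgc

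Glis3 intron 1, diabetes-locus peak, chr19:28744611-28744810: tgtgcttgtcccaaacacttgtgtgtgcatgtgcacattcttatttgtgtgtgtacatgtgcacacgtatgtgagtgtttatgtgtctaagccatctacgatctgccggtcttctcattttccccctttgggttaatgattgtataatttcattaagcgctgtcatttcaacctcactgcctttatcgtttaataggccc

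Glis3 intron 1, second diabetes-locus peak, chr19:28752468-28752667: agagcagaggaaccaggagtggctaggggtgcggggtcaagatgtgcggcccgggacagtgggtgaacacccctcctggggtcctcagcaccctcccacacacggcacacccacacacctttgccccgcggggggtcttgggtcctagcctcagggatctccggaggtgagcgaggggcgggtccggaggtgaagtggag

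Glis3 intron 2, chr19:28710679-28710878: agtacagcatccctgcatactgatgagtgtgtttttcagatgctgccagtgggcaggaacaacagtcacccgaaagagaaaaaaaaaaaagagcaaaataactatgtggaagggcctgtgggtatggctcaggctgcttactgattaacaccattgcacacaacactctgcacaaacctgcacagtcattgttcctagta

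Glis3 upstream, chr19:28808514-28808713: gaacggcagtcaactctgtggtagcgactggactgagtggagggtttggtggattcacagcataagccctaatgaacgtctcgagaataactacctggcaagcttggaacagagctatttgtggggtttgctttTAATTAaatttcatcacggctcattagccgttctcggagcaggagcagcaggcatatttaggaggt

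Glis3 intron 4, higher in αTC1, chr19:28456478-28456677: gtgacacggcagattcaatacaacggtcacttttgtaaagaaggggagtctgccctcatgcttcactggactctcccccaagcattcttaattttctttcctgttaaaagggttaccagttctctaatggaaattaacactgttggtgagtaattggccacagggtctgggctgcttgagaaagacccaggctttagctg

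Zmiz1 intron 4, chr14:26393790-26393989: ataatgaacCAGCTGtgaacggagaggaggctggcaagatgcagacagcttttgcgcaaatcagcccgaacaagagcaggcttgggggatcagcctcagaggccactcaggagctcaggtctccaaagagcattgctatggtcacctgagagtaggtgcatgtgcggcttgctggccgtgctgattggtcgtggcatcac

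Zmiz1 intron 3, diabetes-locus peak, chr14:26374580-26374779: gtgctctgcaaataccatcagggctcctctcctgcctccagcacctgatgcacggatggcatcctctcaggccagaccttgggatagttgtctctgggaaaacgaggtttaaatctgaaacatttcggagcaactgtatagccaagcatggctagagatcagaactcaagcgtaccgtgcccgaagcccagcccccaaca

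Glis1 intron 5, higher in αTC1, chr4:107290322-107290521: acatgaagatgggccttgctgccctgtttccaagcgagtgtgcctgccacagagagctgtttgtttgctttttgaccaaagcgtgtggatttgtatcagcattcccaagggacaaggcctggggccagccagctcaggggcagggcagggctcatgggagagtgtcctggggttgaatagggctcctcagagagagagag

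Both strands were searched, and the same window was used for every peak. TAATTA stood in 2 of the 8 Glis3 peaks called more open in βTC6, where 13% of all peaks called in that direction held it. It stood in 3 of the 53 member peaks and in 6.92% of all peaks. CAGCTG stood in 4 of the 53 and in 17.2% of all peaks, and it was also found in the Glis3 promoter window. The GLI consensus GACCACCCA was in 0 of the 53 and in 0.131% of all peaks, and TGGGGGG, part of the GLIS recognition sequence, was in 4 of the 53 and in 2.92% of all. TGTTTAC, a forkhead core, was in 1 of the 53 against 6.32% of all peaks, TGCTGAC, part of the Maf site, in 4 against 4.86%, and GTTGCCA, part of the RFX site, in 1 against 3.45%. A match or its absence describes the letters of these windows only. The median GC content of the windows was 45.5% for Glis3, 57.5% for Zmiz1 and 48.5% over all peaks.

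Glis3 was the member with the largest RNA difference. It was nearly silent in αTC1 and expressed in βTC6. FPKM (fragments mapped, scaled for transcript length and sequencing depth) was 0.32, 0.17 and 0.50 in the αTC1 libraries and 6.23, 4.71 and 4.43 in the βTC6 libraries. Every βTC6 library lay above every αTC1 library. The means were 0.33 ± 0.17 and 5.12 ± 0.97 FPKM (SD, n = 3 each), and the log2 fold change of βTC6 over αTC1 was 4.03 ± 0.25 (SE; adjusted p = 9.60e-07, edgeR quasi-likelihood test with Benjamini-Hochberg adjustment). A gene was called where the adjusted p was under 5% and the absolute log2 fold change over 2, and Glis3 was the only 1 of the 5 members called. Of 12195 genes tested, 10.2% were called higher in βTC6 and 4.08% higher in αTC1.

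The annotation holds a second, shorter Glis3 entry inside the 3′ part of the first, on the same strand. Its FPKM was 0.18, 0.28 and 0.14 in αTC1 and 0 in each βTC6 library, from at most 8.65 expected counts. It missed the expression filter of 1 FPKM in all replicates of a line. Reads can be divided between overlapping entries, so the split is uncertain. With both entries summed, the log2 fold change of Glis3 was 3.88. The filter itself was passed by Glis1 and Glis3 only through βTC6, the line in which they were higher.

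The other GLIS genes differed less. Glis2, a family member best known for a kidney disease, nephronophthisis, had 4.6, 4.68 and 5.26 FPKM in αTC1 and 9.65, 7.86 and 9.03 in βTC6, without overlap. Its log2 fold change was 0.97 ± 0.11 (SE; adjusted p = 5.33e-05, edgeR). Glis1, which has been used to promote reprogramming of somatic cells, had 0.77, 1.01 and 1.23 FPKM in αTC1 and 1.92, 1.88 and 1.51 in βTC6. Its groups did not overlap either, and the log2 fold change was 0.98 ± 0.24 (SE; adjusted p = 0.00447, edgeR). Neither passed the fold threshold.

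Zmiz1 RNA was 11.3, 12.4 and 12 FPKM in αTC1 and 21.1, 18.2 and 19.4 FPKM in βTC6. The log2 fold change was 0.79 ± 0.08 (SE; adjusted p = 2.32e-05, edgeR), with no overlap of the libraries. Zmiz1 lies on chromosome 14, where the median log2 fold change of the 414 other tested genes was 1.2, against 0.01 over all tested genes. Taken relative to that chromosome, the Zmiz1 log2 fold change was -0.41 (adjusted p = 0.00172), so its direction turned. Whether chromosome copy number differed between the lines was not tested.

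Zmiz2 was the most highly expressed member in both lines. It had 34.6, 36.9 and 41.1 FPKM in αTC1 and 34, 29.9 and 35.9 in βTC6, and the ranges overlapped. The log2 fold change was -0.14 ± 0.09 (SE; adjusted p = 0.205, edgeR), which did not pass the threshold.

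Counted by the adjusted p alone, Glis1, Glis2, Glis3 and Zmiz1 were higher in βTC6 and no member was higher in αTC1, where 38.7% and 36% of all tested genes passed in those directions. On spike-in scaling, Glis1, Glis2 and Zmiz1 no longer passed (adjusted p = 0.171, 0.134 and 0.246, edgeR), while their log2 fold changes were 0.91, 0.87 and 0.69, against 0.98, 0.97 and 0.79 with TMM scaling. The size factor from the spike-ins was 1.74 in βTC6 library 3 and 0.80 to 1.04 in the others. The study itself normalized its counts on the spike-ins, with RUVSeq, which is another method than the scaling used here. The order of levels per length was Zmiz2, Zmiz1, Glis2, Glis1 and Glis3 in αTC1. In βTC6 it was Zmiz2, Zmiz1, Glis2, Glis3 and Glis1. No neighbours in either order had overlapping ranges.

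**Figure D1:**
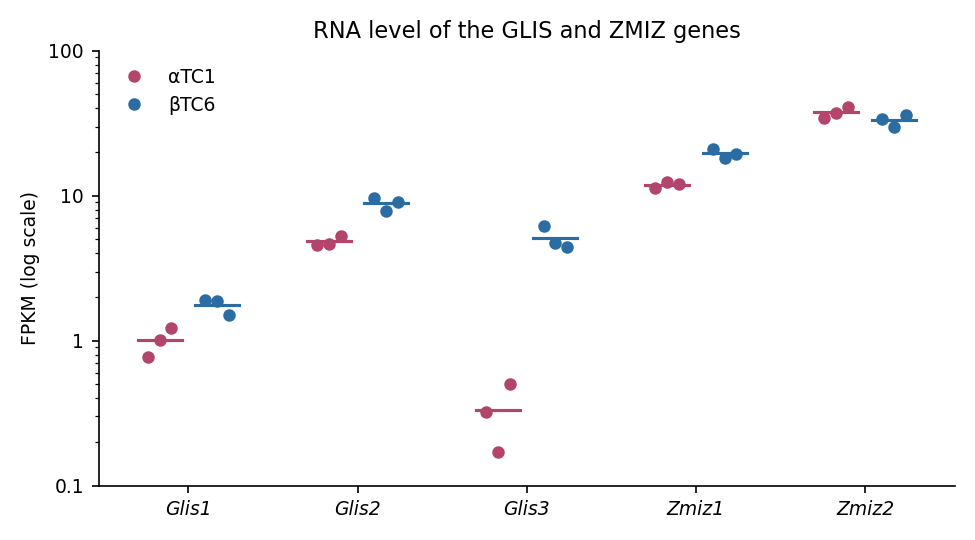
FPKM of the 5 genes on a log axis, with 1 point per RNA-seq library (3 per line) and a bar at the mean. Glis3 is below 1 FPKM in the αTC1 libraries and between 4.43 and 6.23 in the βTC6 libraries, while the Zmiz2 points of the lines overlap.

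The accessibility of much of the Glis3 locus also differed between the lines. The gene spans 421227 bp of chromosome 19 on the reverse strand, chr19:28333341-28754567, and 20 peaks were assigned to it. Of these, 17 were inside the gene and carried the name of another gene in the deposited annotation. By the same thresholds as for RNA (limma on log2(normalized read count + 1)), 8 were called more open in βTC6 and 1 in αTC1. Among all peaks 12.9% were called more open in βTC6 and 5.38% in αTC1. By the adjusted p alone 15 were higher in βTC6 and 4 in αTC1, against 39.9% and 38.1% of all peaks. The median log2 fold change of the 20 peaks was 1.91, that of the 322 other peaks within 5 Mb was 0.61, and that of the other 1661 peaks of the chromosome was 0.08. The peaks share 1 gene and do not count as replicates. Over all 53 member peaks 11 were called more open in βTC6 and 3 in αTC1. In replicates 1 to 3 alone the counts were 11 and 3, and in replicates 4 and 5 alone, which the study's library table treats differently, 14 and 4. With a pseudocount of 5 in place of 1, which shrinks the differences of weak peaks, 1 peak stayed called in each direction, both at Glis3.

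The promoter peak, chr19:28754007-28754864, covers exon 1 and its 5′ UTR. A normalized read count here is the reads of a peak after the authors' scaling for library size, and 1 read was worth 0.0939 to 0.205 in the pure libraries. At this peak the count was 4.76, 5.48, 5.86, 9.14 and 5.92 in αTC1 and 35.2, 23.6, 31.4, 41.1 and 42.3 in βTC6. All βTC6 libraries lay above all αTC1 libraries, and the log2 fold change was 2.30 ± 0.17 (SE; adjusted p = 2.51e-10, limma, n = 5 each). Relative to the other peaks within 5 Mb it was 1.69 (adjusted p = 4.09e-08, limma), short of the fold threshold. On that scale 4 of the 8 peaks stayed called in βTC6. The Glis3 peaks called in αTC1 were then those starting at 28456355, 28483308 and 28510824, all in intron 4.

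The peak in intron 1 that the study lists for the GLIS3 diabetes locus, chr19:28744180-28745242, lies 9856 bp into the gene. Its normalized read count was 1.68, 2.39, 1.5, 1.77 and 1.44 in αTC1, from 10 to 17 reads. In βTC6 it was 28.4, 28.1, 27.7, 28.7 and 15.9. The groups did not overlap, although βTC6 library 5 was well below the other 4. The log2 fold change of 3.26 ± 0.19 (SE; adjusted p = 1.13e-11, limma) was the largest of the Glis3 peaks with a pseudocount of 1, but with edgeR on recovered reads it was 3.85, against 3.90 for the intron 2 peak at chr19:28710602-28710956.

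The other listed peak, chr19:28752377-28752759, lies 1999 bp into the gene. It had 1.82, 2.39, 2.25, 1.5 and 3.47 normalized reads in αTC1 and 8.52, 11.3, 9.86, 14.4 and 9.86 in βTC6. The log2 fold change was 1.85 ± 0.21 (SE; adjusted p = 1.55e-07, limma), again without overlap but short of the fold threshold. The ratio of the mean normalized reads was 4.72, and edgeR on recovered reads called the peak more open in βTC6. D930032P07Rik, a long non-coding RNA that starts near this peak on the opposite strand, was near silent at a mean of 0.0567 FPKM in αTC1 and 0.0533 in βTC6.

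Among the other 6 peaks called more open in βTC6, 5 were intronic and 1 was upstream. In intron 2, chr19:28710602-28710956 had 0.7, 0.140, 1.05, 1.77 and 0.433 normalized reads in αTC1 and 14.6, 13.5, 10.0, 13 and 11.5 in βTC6, a log2 fold change of 2.95 ± 0.24 (SE). The upstream peak, chr19:28808163-28809066, lay 54047 bp before the gene and held 2.1, 0.702, 0.150, 1.64 and 0.722 in αTC1 against 11.9, 12.7, 8.51, 9.27 and 16.7 in βTC6. Its log2 fold change was 2.69 ± 0.27 (SE). The remaining called peaks had log2 fold changes from 2.24 to 2.63. A pair of intron 4 peaks stood just below the fold threshold, at 1.98 and 1.97. Their ratios of mean normalized reads were 6.19 and 4.33, and both were called with edgeR on recovered reads and with replicates 4 and 5 alone.

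One element inside Glis3 went the other way. The intron 4 peak chr19:28456355-28456802, 297989 bp into the gene, had 28.4, 24.4, 29.9, 25.1 and 36.7 normalized reads in αTC1 and 2.98, 3.28, 4.32, 2.57 and 2.44 in βTC6. It was the strongest Glis3 peak of αTC1, stronger there than the promoter in every library, and its log2 fold change was -2.86 ± 0.17 (SE; adjusted p = 7.57e-12, limma). A further 3 intronic peaks were higher in αTC1 by the adjusted p, with log2 fold changes of -0.68, -1.50 and -1.74.

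**Figure D2:**
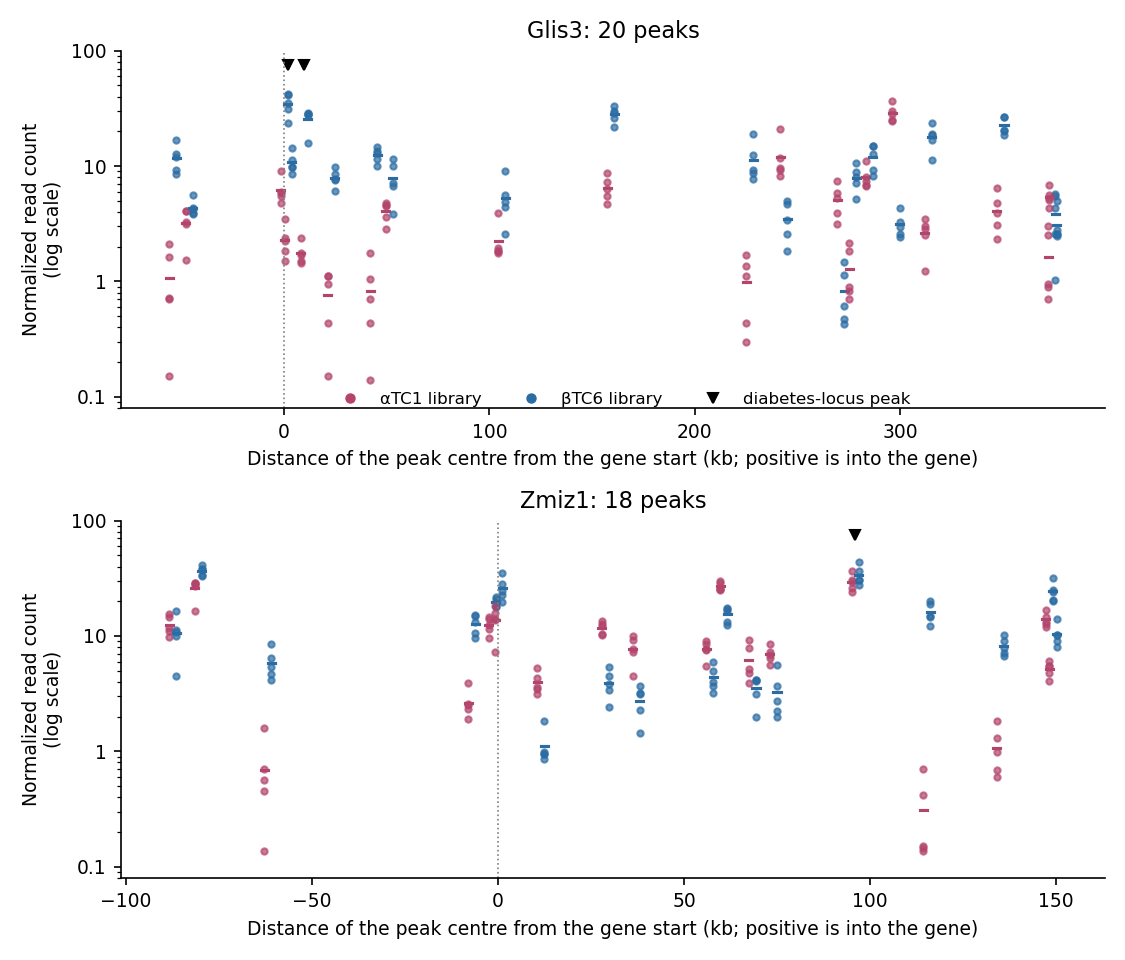
Normalized read counts on a log axis of the 20 Glis3 peaks (top) and the 18 Zmiz1 peaks (bottom) by distance from the gene start, with 1 point per ATAC-seq library (5 per line), bars at the means and triangles over the diabetes-locus peaks. The Glis3 promoter and first-intron points of βTC6 lie above those of αTC1, while at the Zmiz1 diabetes-locus peak the points of the lines overlap.

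At Zmiz1, chr14:26278671-26486229, the promoter was open in both lines, and few of the peaks passed the fold threshold. Of 18 peaks, 3 were called more open in βTC6 and 0 in αTC1, beside the 12.9% and 5.38% of all peaks. On chromosome 14 itself, 35.6% of the other 2812 peaks were called more open in βTC6 and 0.853% in αTC1, and their median log2 fold change was 1.54. The 18 peaks had a median of 0.35, and the 204 other peaks within 5 Mb a median of 1.002. Relative to the chromosome median the balance turned, with 1 Zmiz1 peak called in βTC6 and 7 in αTC1, and relative to the peaks within 5 Mb the calls were 1 and 3. By the adjusted p alone, 9 Zmiz1 peaks were higher in βTC6 and 7 in αTC1 (limma), against 39.9% and 38.1% of all peaks.

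The diabetes-locus peak in intron 3, chr14:26374156-26375204, was open in both lines. It had 26.2, 23.9, 30.8, 29.2 and 36.8 normalized reads in αTC1 and 36.4, 27.9, 30.8, 30.7 and 43.7 in βTC6. The groups overlapped, and the log2 fold change was 0.20 ± 0.13 (SE; adjusted p = 0.169, limma). By the mean it was the strongest Zmiz1 peak of αTC1, although αTC1 libraries 1 and 2 had more reads at the upstream peak chr14:26197288-26198761. Relative to the chromosome median its log2 fold change was -1.34 (adjusted p = 6.29e-08), and relative to the other peaks within 5 Mb it was -0.81 (adjusted p = 1.90e-05).

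Further into the gene, the intron 4 peak chr14:26393527-26394253 was almost closed in αTC1, with 0.7, 0.421, 0.150, 0.136 and 0.144 normalized reads from 1 to 5 reads, where 1 read cannot be told from none. In βTC6 it had 20.0, 14.6, 12.2, 18.8 and 15.0. Its log2 fold change of 3.71 ± 0.22 (SE; adjusted p = 8.94e-12, limma) was the largest of the 53 peaks. With so few αTC1 reads the size depends on the pseudocount: it was 5.61 with edgeR on recovered reads and 1.98 with a pseudocount of 5, below the 2.16 of the Glis3 peak chr19:28744180-28745242 on that scale. The intron 6 peak chr14:26413412-26413747 had 0.980, 1.83, 0.601, 0.682 and 1.30 in αTC1 and 7.81, 9.02, 7.16, 10.1 and 6.67 in βTC6, a log2 fold change of 2.16 ± 0.22 (SE). The third called peak, 61950 bp upstream at chr14:26216524-26216919, had 0.560, 0.702, 0.451, 0.136 and 1.59 against 4.69, 5.33, 6.49, 4.14 and 8.54, a log2 fold change of 2.04 ± 0.23 (SE). At these 3 peaks no library of one line reached the range of the other. Relative to the other peaks within 5 Mb, only the intron 4 peak of the 3 stayed past the fold threshold.

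The Zmiz1 promoter peak, chr14:26278327-26279265, had 18.1, 13.9, 15.8, 13.8 and 7.22 normalized reads in αTC1 and 35.2, 24.6, 28.4, 22.8 and 19.7 in βTC6. The log2 fold change was 0.91 ± 0.19 (SE; adjusted p = 0.000198, limma) without overlap, but relative to the other peaks within 5 Mb it was -0.10 (adjusted p = 0.674). The Zmiz1 peak with the highest mean in βTC6, 80647 bp upstream at chr14:26197288-26198761, had 28.9, 28.2, 28.7, 27.0 and 16.6 in αTC1 and 38.2, 32.8, 41.2, 33.7 and 38.0 in βTC6. Its log2 fold change was 0.51 ± 0.13 (SE; adjusted p = 0.00152, limma), and -0.49 relative to the other peaks within 5 Mb. Between the promoter and the diabetes-locus peak stood 7 intronic peaks, a stretch chosen after its values were seen. All 7 were higher in αTC1 by the adjusted p, with log2 fold changes from -1.40 to -0.65, and 4 of the 7 had groups that did not overlap. Relative to the chromosome median all 7 were called in αTC1, and relative to the other peaks within 5 Mb 3 were. Of all peaks, 38.1% were higher in αTC1 by the adjusted p and 30.2% were higher without overlap.

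**Figure D3:**
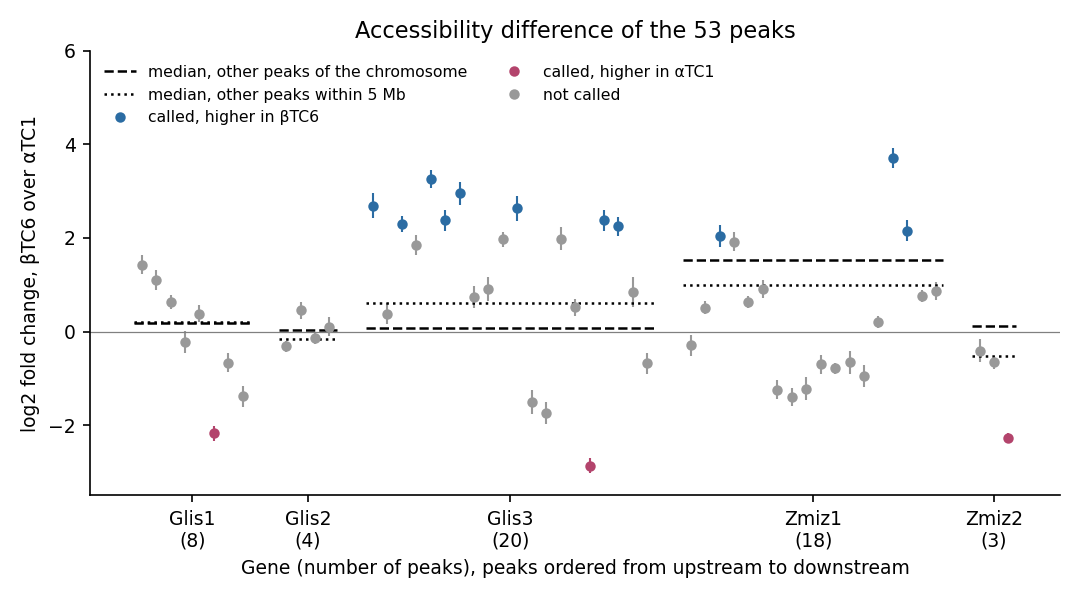
The log2 fold change of βTC6 over αTC1 with its SE (limma, 5 libraries per line) for the 53 peaks by gene, coloured by call, with the median of the other peaks of the chromosome (dashed) and within 5 Mb of the gene (dotted). Most Zmiz1 peaks lie below the chromosome 14 median of 1.54, while most Glis3 peaks lie above the chromosome 19 median of 0.08.

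At Glis1, chr4:107107196-107307666, and Zmiz2, chr11:6289077-6306165, the called peaks were higher in αTC1. By the adjusted p, Glis1 RNA was higher in βTC6, while Zmiz2 RNA passed in neither direction. The Glis1 peak chr4:107289972-107290873 lies in intron 5 of transcript Glis1-001, over an exon of another Glis1 transcript, and was annotated to Dmrtb1. It had 47.8, 44.7, 45.4, 46.8 and 57.5 normalized reads in αTC1 and 8.38, 7.18, 12.3, 8.28 and 15.5 in βTC6, a log2 fold change of -2.17 ± 0.16 (SE; adjusted p = 2.10e-10, limma). The Glis1 promoter peak, chr4:107106757-107107829, had 16.4, 19.0, 21.8, 13.1 and 13.6 in αTC1 and 28.4, 25.6, 32.4, 19.4 and 25.8 in βTC6, with overlap and a log2 fold change of 0.63 ± 0.15 (SE; adjusted p = 0.000700, limma). Promoter and intron 5 thus differed in opposite directions. Of the 8 Glis1 peaks, 3 were higher in βTC6, 3 in αTC1 and 2 passed in neither direction by the adjusted p, which is close to the 39.9% and 38.1% of all peaks.

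The Zmiz2 peak called in αTC1, chr11:6304589-6305694, covers the last exon, exon 20 of transcript Zmiz2-002, with its coding end and 3′ UTR. It had 63.4, 64.1, 58.8, 57.7 and 72.9 normalized reads in αTC1 and 11.8, 12.1, 12.4, 11.1 and 14.6 in βTC6. The αTC1 mean was the highest of the 53 peaks, and the log2 fold change was -2.26 ± 0.10 (SE; adjusted p = 2.86e-13, limma). Relative to the other peaks within 5 Mb it was -1.75 (adjusted p = 5.70e-12), short of the fold threshold. The Zmiz2 promoter peak, chr11:6288777-6289421, had 33.5, 31.5, 23.4, 32.2 and 36.5 in αTC1 and 23.4, 15.4, 16.8, 21.3 and 20.8 in βTC6. The lowest αTC1 library stood close to the highest βTC6 library, and the log2 fold change was -0.66 ± 0.13 (SE; adjusted p = 0.000137, limma). Relative to the other peaks within 5 Mb it was -0.15 (adjusted p = 0.304).

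Glis2, chr16:4594713-4624924, had 4 peaks, and none was called. Its promoter peak, chr16:4593999-4595200, had 24.1, 23.2, 23.6, 20.9 and 22.8 normalized reads in αTC1 and 21.4, 25.2, 18.9, 20.7 and 17.3 in βTC6, with overlap (log2 fold change -0.15 ± 0.11, SE; adjusted p = 0.233, limma). The upstream peak chr16:4586152-4587122 had 42.3, 44.4, 43.6, 49.8 and 51.9 against 48.0, 34.7, 35.5, 29.1 and 39.7, also overlapping (log2 fold change -0.32 ± 0.11, SE; adjusted p = 0.0160, limma), and it did not pass with βTC6 library 4 left out (adjusted p = 0.0595) or with replicates 1 to 3 alone (adjusted p = 0.243). Its log2 fold change was -0.16 relative to the other peaks within 5 Mb (adjusted p = 0.214) and turned to 0.047 under quantile normalization (adjusted p = 0.726). The peak chr16:4593002-4593427, 1499 bp upstream, had a log2 fold change of 0.45 ± 0.18 (SE; adjusted p = 0.0274, limma), with overlap. By the adjusted p, 1 of the 4 Glis2 peaks was thus higher in βTC6 and 1 in αTC1, against 39.9% and 38.1% of all peaks. Glis2 RNA was higher in βTC6 by the adjusted p, and neither the RNA nor any peak passed the fold threshold. Pam16, which overlaps Glis2 on the opposite strand, had 45.0 FPKM in αTC1 and 51.5 in βTC6 on average. The library kit marks strand, but by the study's methods RSEM was run with its default settings, which do not use it, so reads of such a pair cannot be told apart with certainty.

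Mixtures of the lines gave a further set of libraries that no call used. For each gene the normalized reads of its called peaks were summed by direction, giving 5 sums, and set against the percent of αTC1 cells. The peaks were chosen for a difference between these lines, so a trend in the same direction was built in. The p-values below therefore do not test the calls, and the values show how closely the mixtures followed their shares. The sum of the 8 Glis3 peaks called in βTC6 was 17.2 to 20.2 in pure αTC1 and 131 to 153 in pure βTC6. From 10% to 90% αTC1 it was 122, 123, 91.6, 90.1, 83.1, 60.2, 49.0, 28.1 and 31.1. It fell with the αTC1 share (Pearson r = -0.98, adjusted p = 8.27e-05; Spearman rho = -0.97, adjusted p = 0.000207; exact 2-sided permutation tests, n = 9). Without the 10% and 90% mixtures r was -0.98. The mixtures stood at 0.645 to 1.03 of a straight line between the pure means, lowest at 80% αTC1.

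The 3 Zmiz1 peaks summed to 26.8, 21.5, 19.0, 15.0, 13.2, 12.1, 7.31, 2.60 and 2.44 over the same mixtures. Every step was downward (rho = -1 and r = -0.99, both adjusted p = 2.76e-05, exact permutation, n = 9, from the smallest p that 9 mixtures can give), and r was -0.98 without the outer mixtures. At 80% and 90% αTC1 the sums lay inside the pure αTC1 range of 0.955 to 3.03. Measured against a straight line between the pure means, the mixtures stood at 0.339 to 0.980 of the line, all below it.

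The sums called in αTC1 rose with the αTC1 share. The Glis3 intron 4 peak went from 7.93 at 10% to 27.0 at 90% (r = 0.96, adjusted p = 0.000143; rho = 0.97, adjusted p = 0.000207), the Glis1 intron 5 peak from 18.7 to 52.2 (r = 0.96, adjusted p = 0.000129; rho = 0.98, adjusted p = 0.000124) and the Zmiz2 last-exon peak from 17.1 to 56.9 (r = 0.95, adjusted p = 0.000143; rho = 0.95, adjusted p = 0.000353), all by exact permutation. Without the outer mixtures r was 0.92 for Glis3, 0.93 for Glis1 and 0.92 for Zmiz2. The mixtures stood at 0.854 to 1.39 of the line between the pure means for Glis3, 0.890 to 1.33 for Glis1 and 0.926 to 1.21 for Zmiz2. The mixtures have no replicates.

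**Figure D4:**
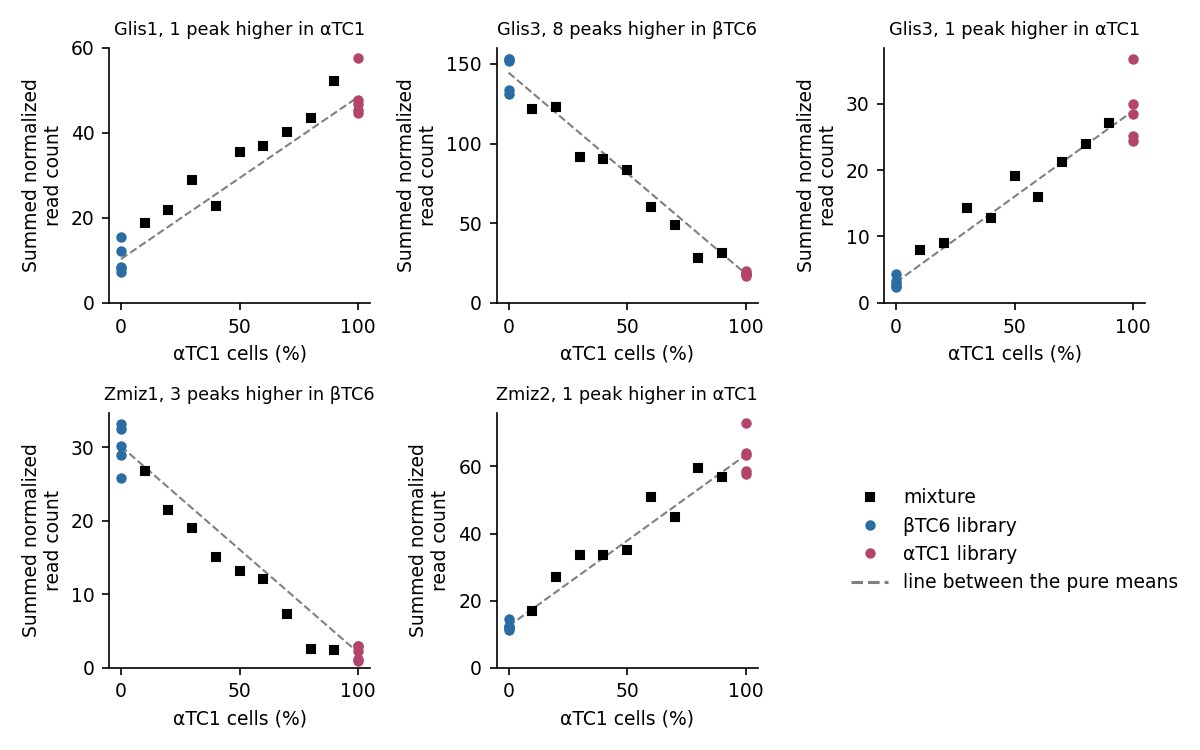
Summed normalized read count of the called peaks of each gene and direction against the percent of αTC1 cells, for the 9 mixtures (squares) and the 5 libraries of each pure line (circles at 0 and 100), with a dashed line between the pure means. The 9 Zmiz1 squares lie below the line, and the squares of the Glis3 peaks called in βTC6 go from 122 to 31.1, at 0.645 to 1.03 of the line.

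Genes that act with the GLIS proteins were compared next. Of 9 genes known to depend on or be bound by GLIS3 in islets, 8 were tested, 6 were called higher in βTC6 and 0 in αTC1, where 10.2% and 4.08% of all tested genes were called. Ins1, Ins2, Mafa, Pdx1 and Slc2a2 passed the expression filter only through βTC6, the line in which they were high, so their count is a description alone. Most of them also define beta cells, so they mark the line as well as GLIS3. Ins1 and Ins2, the insulin genes, had means of 2000 and 30081 FPKM in βTC6, with Ins1 listed at 0 in αTC1 and Ins2 at 0.340. Pdx1, a homeodomain regulator of insulin, had 111 FPKM in βTC6 and was listed at 0 in αTC1. Ccnd2, a cyclin, was higher in βTC6 by the adjusted p, and Neurod1, an endocrine bHLH factor, did not pass (log2 fold change -0.11, adjusted p = 0.272, edgeR). Neurog3, the endocrine progenitor factor, was not expressed above the filter.

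Of the 8 GLI and ZIC relatives, Gli2 was the single gene tested. Gli2, a transcription factor of Hedgehog signalling, had 5.94, 6.57 and 7.57 FPKM in αTC1 and 0.10, 0.15 and 0.07 in βTC6, a log2 fold change of -6.16 ± 0.20 (SE; edgeR). It passed the filter only through αTC1. Gli2 and Glis3 thus stood in opposite orders in the lines. Of the 9 GLIS partner proteins, which include Sufu and the ubiquitin ligase Itch, 8 were tested, 0 were called, 1 was higher in βTC6 and 4 in αTC1 by the adjusted p, with a median log2 fold change of -0.24 against 0.01 over all tested genes. Over all tested genes 38.7% passed in the βTC6 direction and 36% in the αTC1 direction, the shares against which this count and those of the next lists stand.

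The genes around the ZMIZ proteins were expressed broadly. All 16 PIAS and SUMO pathway genes passed the filter, and 0 were called. By the adjusted p, 10 were higher in αTC1 and 1 in βTC6, with a median log2 fold change of -0.29. Among 8 ZMIZ partners 6 were tested, 4 were higher in αTC1 and 1 in βTC6, and the median was -0.75. Smad3, a mediator of TGF-beta signalling, was the called one, with 2.72, 2.78 and 5.02 FPKM in αTC1 and 0.53, 0.71 and 0.49 in βTC6 (log2 fold change -2.77 ± 0.26, SE; edgeR), and it passed the filter only through αTC1. Notch1 missed the filter.

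Of 15 other type 2 diabetes locus genes, 9 were tested, 2 were called higher in βTC6 and 0 in αTC1, beside the 10.2% and 4.08% of all tested genes, and by the adjusted p 5 were higher in βTC6 and 2 in αTC1, with a median log2 fold change of 0.74. G6pc2, a glucose-6-phosphatase of islets, had means of 33.7 FPKM in αTC1 and 791 in βTC6. Wfs1, an endoplasmic reticulum protein, had 4.16 and 17.8.

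Neighbouring genes within 500 kb were read beside each member, and their calls stand against the 10.2% of all tested genes called higher in βTC6 and the 4.08% called higher in αTC1. Around Glis3, 6 of 11 genes in the tables were tested and 2 were called higher in βTC6. These were Slc1a1, a glutamate transporter, at means of 0.0133 FPKM in αTC1 and 4.11 in βTC6, and Ppapdc2, at 3.98 and 19.8. Rfx3, a ciliary and endocrine transcription factor to which some Glis3 intronic peaks were annotated, was higher in βTC6 by the adjusted p (2.11 and 4.26 FPKM). Around Zmiz1, 4 of 16 were tested and 1, D14Ertd449e, was called higher in βTC6 (0.410 and 3.52 FPKM). Gm10397, inside the 3′ end of Zmiz1 on the same strand, had 4.77 and 12.3 FPKM, and its reads cannot be told apart from those of Zmiz1 with certainty.

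Near Glis1, 2 of 17 tested genes were called higher in βTC6: Dio1, a thyroid hormone deiodinase, at means of 0.0667 and 5.05 FPKM, and B230314M03Rik at 0.01 and 5.40. Near Glis2, 1 of 18 was, the adenylyl cyclase Adcy9 at 1.92 and 11.3. Near Zmiz2, 2 of 15 tested genes were called higher in βTC6. Among them was Camk2b, a subunit of a calmodulin-dependent kinase, at 4.12 and 33.1. Slc1a1, D14Ertd449e, Dio1 and B230314M03Rik passed the filter only through βTC6. No tested neighbour of a member was called higher in αTC1. The counts called near Glis1 and Glis2 were close to or below the share over all genes. By the adjusted p alone, neighbours higher in βTC6 numbered 11 of 17 near Glis1, 17 of 18 near Glis2 and 4 of 6 near Glis3. Near Zmiz1 they numbered 3 of 4 and near Zmiz2 6 of 15. Those higher in αTC1 numbered 0, 1, 1, 0 and 2 in the same order. Over all tested genes 38.7% and 36% passed in those directions. The median log2 fold changes of the neighbours were 0.82, 0.61, 0.95, 1.59 and 0.23 in that order.

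The tested genes closest to each member in log2(FPKM + 1) over the 6 RNA-seq libraries, by Euclidean distance, were Efna2, Scn3b and Dgkh for Glis3 (0.28, 0.34 and 0.38). For Zmiz1 they were Uros, Btbd6 and Cnpy4 (0.19, 0.20 and 0.20), and for Zmiz2 Mast2, Eif4enif1 and Psmg2 (0.15, 0.16 and 0.21). For Glis2 they were Elovl4, 1200011M11Rik and 6720463M24Rik (0.23, 0.26 and 0.27), and for Glis1 4833418N02Rik, Asap3 and Rtbdn (0.18, 0.29 and 0.31).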

How the data were processed

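The deposited ATAC-seq signal was a TMM-normalized read count per consensus peak: per the labels and the study's methods, the authors trimmed with Trimmomatic 0.32, aligned to mm9 with BWA 0.7.9a, marked duplicate reads with Picard 1.95 and dropped them, ran MACS2 2.1.0 on each library, then merged and scaled peaks with DiffBind 2.2.5. The deposited expected counts and FPKM were made by the authors with RSEM 1.2.12. Whole reads were recovered by dividing each ATAC-seq library by its lowest value, and 100% of values were whole multiples (tolerance 0.01 read).

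Here peaks were tested with limma 3.58.1 (lmFit, eBayes with trend) on log2(normalized read count + 1), and genes with edgeR 4.0.16 (TMM, glmQLFTest) on rounded expected counts without the 92 spike-in rows, keeping genes that reached 1 FPKM in the 3 replicates of either line. R was 4.3.3. The SE of a gene is its absolute log2 fold change over the square root of F. Mixture correlations used exact permutations. Scripts were tested on simulated data. DESeq2 1.42.0 and edgeR on recovered reads were alternatives. Columns of sample values matched to no library numbered 0.

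The members, the gene lists and the rule for named features were chosen with earlier results of these data known. Named were the members, up to 3 called genes per list and direction, up to 4 called neighbours, the 3 closest genes, and for each member the peak nearest a start, the strongest peak of each line, up to 3 called peaks per direction and the peaks the study lists. Other genes of a list or locus were named after their values were seen. The authors' call of peak type was not used. Some genes of the lists and loci are not reported here, and the diabetes locus list was shortened by them after its values were known.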

Additional observations from a re-analysis of the deposited data

Results flagged for a closer look

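In 40 groups of 5 libraries at the named peaks and sums, 4 held a library set apart from the rest by a gap above Dixon's 95% critical value of 0.71 of the range, and chance gives about 1 in 20. At the Glis3 diabetes-locus peak chr19:28744180-28745242, βTC6 library 5 had 15.9 normalized reads, where the other βTC6 libraries had 27.7 to 28.7. At the Glis3 promoter peak, αTC1 library 4 had 9.14, where the others had 4.76 to 5.92. At the Glis1 intron 5 peak, αTC1 library 5 had 57.5, where the others had 44.7 to 47.8. At the Zmiz1 upstream peak chr14:26197288-26198761, αTC1 library 5 had 16.6, where the others had 27.0 to 28.9.

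Library 5 of a line was the library set apart in 3 of the 4, high in 1 and low in 2. At each of these peaks the lines kept their order with that library left out.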

How the results depend on the processing

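Of 401 values of single genes and peaks under an alternative, 383 kept their side of the 5% threshold without a counted change of direction. A change of direction was counted only where the value passed the threshold before or after. The called member genes stayed at 1 under every alternative but the lack of an FPKM filter, which gave 2 because the second Glis3 entry was then tested. That entry was higher in αTC1, opposite to the first, from at most 8.65 expected counts there and 0 in βTC6. Member peaks called more open in βTC6, 11 as reported, numbered 1 with a pseudocount of 5, 3 among nearest-gene peaks alone and 5 relative to the other peaks within 5 Mb, an alternative added after seeing the data. Those called in αTC1, 3 as reported, numbered 1 with a pseudocount of 5, 1 among nearest-gene peaks alone, 10 relative to the chromosome median and 7 relative to the peaks within 5 Mb. The edgeR test on recovered reads gave 16 and 4 member peaks, and over all peaks 13794 and 5739 against 8409 and 3502 with limma. With each library left out in turn, the counts were 10 to 13 in βTC6, 3 in αTC1 and 1 gene.

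Relative to the chromosome median the log2 fold change turned to -0.41 for Zmiz1 RNA, -1.02 for the Zmiz1 peak at 26197288, -0.63 for its promoter peak and -1.34 for its diabetes-locus peak. Relative to the peaks within 5 Mb these 3 peaks were at -0.49, -0.10 and -0.81. The Glis2 peak at 4586152 turned to 0.047 under quantile normalization. The cause was not tested.

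Same-numbered replicates of the lines did not deviate together: the correlations of their deviations were -0.0019 to 0.069 in ATAC-seq and -0.040 to 0.025 in RNA-seq. With the replicate block the counts were 11 and 3 peaks and 1 gene. The 5 mixture relations kept their direction and passed on a log2 scale and without the outer mixtures. Weak peaks rest on few reads, which limits their fold changes.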
